A study of Mus musculus with 10 samples.

Results

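Ubiquitin is made from precursor proteins, and the 2 ubiquitin-coding genes described here, Ubb and Rps27a, are 2 of the 25078 genes in the count table and 2 of the 18747 with at least 1 count that entered the tests. They were taken by name. Ubb was chosen because it was lower in most CM/miR-126Δ/Δ libraries, so its genotype difference was selected on these samples and is given as a description without a test, and the question asked was whether Rps27a moved the other way. The study sorted LSK cells (Lin−Sca-1+c-Kit+, the marrow fraction that holds hematopoietic stem cells and early progenitors) from 5 CM and 5 CM/miR-126Δ/Δ mice, sequenced 1 rRNA-depleted library per mouse, and compared the genotypes to see what loss of miR-126 changes in pre-leukemic cells. CM mice carried Cbfb56M/+, a knock-in allele that produces the Cbfb-MYH11 fusion of inv(16) acute myeloid leukemia after recombination, and Mx1-Cre. In CM/miR-126Δ/Δ mice, both floxed miR-126 alleles were deleted as well. Both groups had received poly(I:C), which induces Mx1-Cre through interferon, and were sampled 6 weeks later, before leukemia. Mx1-Cre is not restricted to 1 cell type and neither group lacked the fusion, so the comparison was between miR-126 genotypes within CM-expressing mice. Mouse ages were not given in the labels used here.

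Ubiquitin is a small protein that is joined to other proteins, most often to send them to the proteasome, and it is recycled by deubiquitinases. Ubb codes for a polyubiquitin, a chain of ubiquitin units joined head to tail that is cut into single units after translation, and is known to respond to heat and proteotoxic stress. Rps27a codes for 1 ubiquitin unit fused to the small-subunit ribosomal protein eS31, so that its mRNA supplies ubiquitin and a ribosome part together.

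The coding sequences were read first, because 51-base reads have to be told apart by sequence to be counted on a gene. In the GENCODE M1 transcripts used here, the Ubb coding sequence of 918 bases held 4 ubiquitin units of 228 bases each (76 codons), followed by 1 further residue and the stop codon. Rps27a had a coding sequence of 471 bases, in which 1 unit was followed by 80 residues of the ribosomal protein and the stop codon. The first and the last unit of Ubb and the unit of Rps27a are shown to let their near identity be seen, with capitals marking bases that differ from the first Ubb unit.
Ubb unit 1: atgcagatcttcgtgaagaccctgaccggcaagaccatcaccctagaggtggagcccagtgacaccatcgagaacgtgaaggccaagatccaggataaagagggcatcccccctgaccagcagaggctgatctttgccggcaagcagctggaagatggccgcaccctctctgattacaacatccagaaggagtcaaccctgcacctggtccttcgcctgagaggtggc
Ubb unit 4: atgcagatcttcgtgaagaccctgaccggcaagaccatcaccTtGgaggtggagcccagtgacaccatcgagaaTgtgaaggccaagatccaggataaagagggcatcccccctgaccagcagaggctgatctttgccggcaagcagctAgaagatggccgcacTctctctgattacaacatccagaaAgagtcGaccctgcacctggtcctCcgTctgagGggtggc
Rps27a unit: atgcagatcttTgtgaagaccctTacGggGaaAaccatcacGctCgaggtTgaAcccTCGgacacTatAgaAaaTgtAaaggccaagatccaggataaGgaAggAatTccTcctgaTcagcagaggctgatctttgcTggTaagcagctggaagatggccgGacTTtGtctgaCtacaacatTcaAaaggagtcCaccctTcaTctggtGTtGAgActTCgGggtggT
Counted from the first, Ubb units 2, 3 and 4 differed from it by 5, 2 and 10 bases, and the longest run without a difference between 2 Ubb units was 74 to 183 bases, longer than a read in every pair of units. The Rps27a unit differed from the first Ubb unit by 44 bases (80.7% identical) with a longest shared run of 20 bases, shorter than a read. None of the 5 units differed in its residues (0 of 76).

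Reads from these 2 transcripts could therefore be told from each other but not always from other genomic copies. Every 51-base window of each transcript was searched for in the reference genome and within the same transcript. Windows across a splice junction that matched no genomic place were counted with those that match 1 place, unless repeated. For Ubb, 452 of 1449 windows (31.2%) matched 1 place only, 881 (60.8%) also matched elsewhere, and 116 (8.01%) were repeated within the gene and matched nowhere else. The 881 include windows that were also repeated within the gene. Of the 452, 333 began and ended in the 5′ untranslated region, 85 in the coding sequence and 34 in the 3′ untranslated region. For Rps27a, 204 of 741 windows (27.5%) matched 1 place only: 203 lay in the 5′ untranslated region, 1 crossed its boundary, and 0 of the 421 coding windows did. HTSeq, the counter used, by default sets aside reads that align to several places, and whether this default was kept is not given in the sources used here. If it was, few reads from the coding sequence of Rps27a could have entered its count. Gm1821, a ubiquitin pseudogene, had 0 counts in all 10 libraries.

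**Figure D1:**
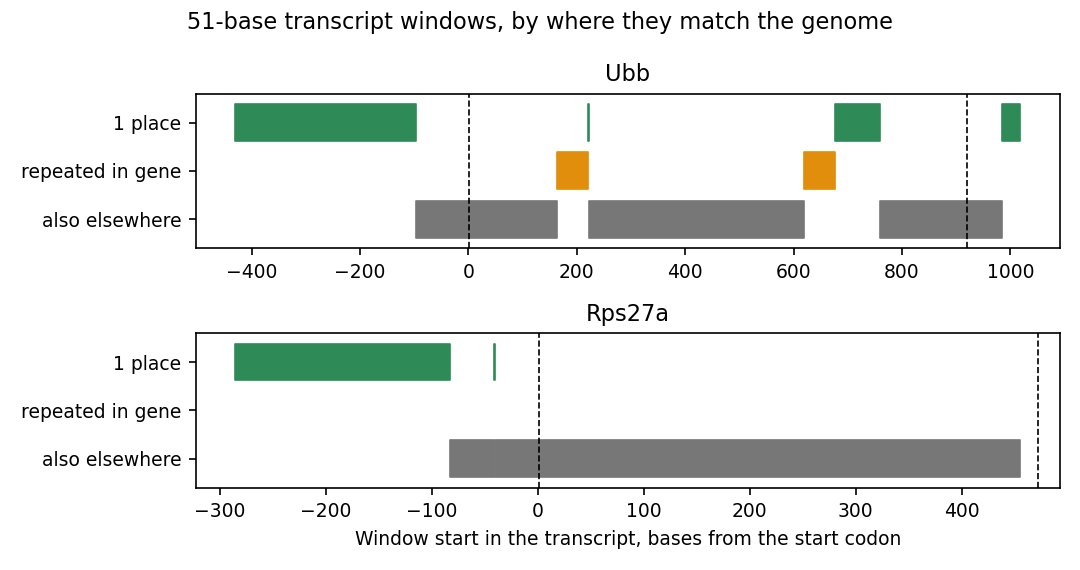
Position of every 51-base window along the transcript, as its start in bases from the start codon (horizontal), for Ubb (top) and Rps27a (bottom). Each bar covers windows that match 1 place (or none, across a splice junction), that are repeated only within the gene, or that also match elsewhere. Dashed lines mark the ends of the coding sequence. No coding window of Rps27a lies in the top row, which holds 204 of its 741 windows.

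Total counts were 23649233 to 33202086 in CM and 24141663 to 26615091 in CM/miR-126Δ/Δ mice (medians 29763105 and 24908932, 2-sided exact permutation test, p = 0.0476). The ribosomal RNA precursor gene Rn45s held 16.8% ± 1.35 of them in CM and 18.7% ± 2.31 in CM/miR-126Δ/Δ mice (SD, n = 5 each). The mature sequence of miR-126a-3p (mm10 chr2:26591402-26591423, plus strand, from RefSeq, seed in capitals) is shown because it is the RNA that was deleted.
miR-126a-3p: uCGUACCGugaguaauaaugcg
In its precursor row, Mir126a, CM mice 1 to 5 held 4, 5, 0, 2 and 3 counts, and there were 0 in all 5 CM/miR-126Δ/Δ mice. CM mouse 3 was at 0 as well, so a count of 0 did not tell the genotypes apart. Only CM mice 1, 2, 4 and 5 were set apart by these few counts. The seed match CGGTACG was not found in the 3′ untranslated region of Ubb or of Rps27a (0 matches each, and 0 for the shorter GGTACG contained in it), read on the transcript strand only. These regions are short, 150 bases in Ubb and 34 in Rps27a, so that little sequence was searched. Over the longest 3′ untranslated region of 19915 genes, 0.211% held CGGTACG and 2.95% held GGTACG, but the lengths of those regions were not matched to the 2 members.

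Ubb was abundant and lower in CM/miR-126Δ/Δ LSK cells. Ubb lay on mm10 chr11:62551171-62553213 (plus strand, exon length 1620 bases). Its level was 91.4, 111, 80.9, 120 and 110 RPKM (reads scaled by exon length and by TMM-adjusted library size) in CM mice 1 to 5, and 53.8, 53.2, 90.8, 60.6 and 65.4 RPKM in CM/miR-126Δ/Δ mice 1 to 5. Among CM/miR-126Δ/Δ mice, 4 were below every CM mouse and mouse 3 was not, lying above CM mouse 3 and just below CM mouse 1, so the groups overlapped through the mice numbered 3. The means were 102.6 ± 15.9 and 64.7 ± 15.4 RPKM (SD, n = 5 each). CM/miR-126Δ/Δ mouse 3 also had the highest Rn45s share of all libraries (22.6%), the lowest TMM factor (0.922) and the fewest genes with a count (15983), and the part of these in its Ubb level was not tested. The log2 fold change was −0.67 (SE 0.141), or 0.631 of the CM level. These rested on 3201 to 5762 counts in CM and 2134 to 3380 counts in CM/miR-126Δ/Δ mice.

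By replicate number, CM/miR-126Δ/Δ had 0.588, 0.477, 1.12, 0.507 and 0.594 of the Ubb CPM (counts scaled by the same library size, without length) of the CM mouse with the same number, lower in 4 of 5 pairs. Without CM/miR-126Δ/Δ mouse 3 the log2 fold change was −0.82, and over all mice left out in turn it was −0.82 to −0.59. Ubb met the cutoffs of the study (p at or below 0.01, fold change of at least 1.5, mean RPKM of at least 1 in a genotype). In the fit made here, 54 of 18747 genes (0.288%) met them, 18 of them lower in CM/miR-126Δ/Δ mice (0.096%). The study itself reported more genes at its cutoffs. Nothing is read from the call of Ubb, since the gene was chosen on that contrast. In bulk RNA, fewer cells of a type and less RNA per cell cannot be told apart.

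No change in the opposite direction was detected in Rps27a. The gene (mm10 chr11:29545842-29548040, minus strand, exon length 821 bases) had 5.97, 6.80, 4.54, 4.75 and 5.27 RPKM in CM mice 1 to 5 and 5.10, 4.72, 5.09, 5.98 and 3.46 RPKM in CM/miR-126Δ/Δ mice 1 to 5. The groups overlapped over most of their range, with the highest level in CM mouse 2 and the lowest in CM/miR-126Δ/Δ mouse 5. The means were 5.47 ± 0.930 and 4.87 ± 0.914 RPKM (SD, n = 5 each). The log2 fold change was −0.17 (SE 0.172, edgeR quasi-likelihood F-test, Benjamini-Hochberg adjusted p = 0.81 over all genes). A 2-sided exact permutation test of log2 CPM gave p = 0.349 (n = 5 per genotype). The 95% interval by a normal approximation ran from −0.50 to 0.17 with all 10 mice. The estimate itself moved with single mice, to −0.07 without CM/miR-126Δ/Δ mouse 5 and −0.08 without CM mouse 2, and −0.24 was its lowest value with 1 mouse left out. Ratios by number were 0.854, 0.694, 1.12, 1.26 and 0.657, lower in 3 of 5 pairs. Only 69 to 169 counts stood behind each value, and how many of them came from the coding sequence cannot be told from the table.

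**Figure D2:**
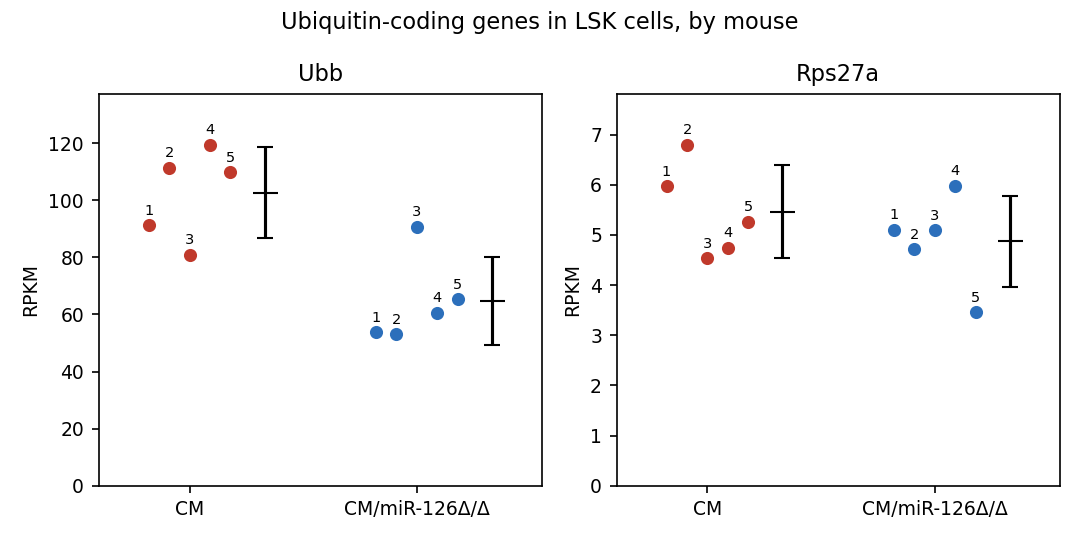
RPKM (vertical, linear from 0) of Ubb (left) and Rps27a (right) in each CM (red) and CM/miR-126Δ/Δ (blue) mouse, with the replicate number above each point and the mean ± SD in black. For Ubb, 4 of 5 CM/miR-126Δ/Δ mice lie below every CM mouse, and for Rps27a the groups overlap over most of their range.

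Summed over both genes, RPKM was 108 ± 16.2 in CM and 69.6 ± 15.4 in CM/miR-126Δ/Δ mice (SD, n = 5 each, log2 ratio −0.63). Multiplied by the number of ubiquitin units that each mRNA codes for, the sums were 416 ± 64.0 and 264 ± 61.7 (log2 ratio −0.66). Both sums contain Ubb and are descriptions, and exon length includes bases whose reads match several places. Per 1000 windows that match 1 place, Ubb had 368 ± 57.1 and 232 ± 55.3 CPM (SD, n = 5 each, CM and CM/miR-126Δ/Δ). Rps27a had 22.0 ± 3.74 and 19.6 ± 3.68 CPM (SD, n = 5 each, same order). The Ubb value was above the Rps27a value in every mouse on either scale. The scale per window holds only if reads matching several places were set aside, which is not given in the sources used here. Of these windows, 85 lay in the coding sequence of Ubb and 0 in that of Rps27a. How far Ubb mRNA exceeded Rps27a mRNA therefore cannot be told from these values.

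The level of Rps27a was low for a ribosomal protein gene. Over 30 small-subunit genes with a reference transcript, mean RPKM over the 10 libraries was 3.13 to 722 (median 36.9), and Rps27a at 5.17 RPKM was lowest but for Rps29 (3.13) and Rps23 (3.98). The share of windows that match 1 place was 0.339% to 96.8% in these genes (median 33.7%), and Rps6, at 5.31%, had 20.4 RPKM. The 20 genes with a share under 50% had a median of 14.4 RPKM and the others 99.6 RPKM, with a Spearman rho of 0.425 across genes, which share libraries and are not independent. Fau, which codes for a ubiquitin-like protein fused to ribosomal protein eS30, stood at 281 RPKM with a share of 11.4%. Windows of Fau matched at most 1 other place, and those of Rps27a up to 10. Whether the share of windows had a part in the low level of Rps27a was not tested.

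**Figure D3:**
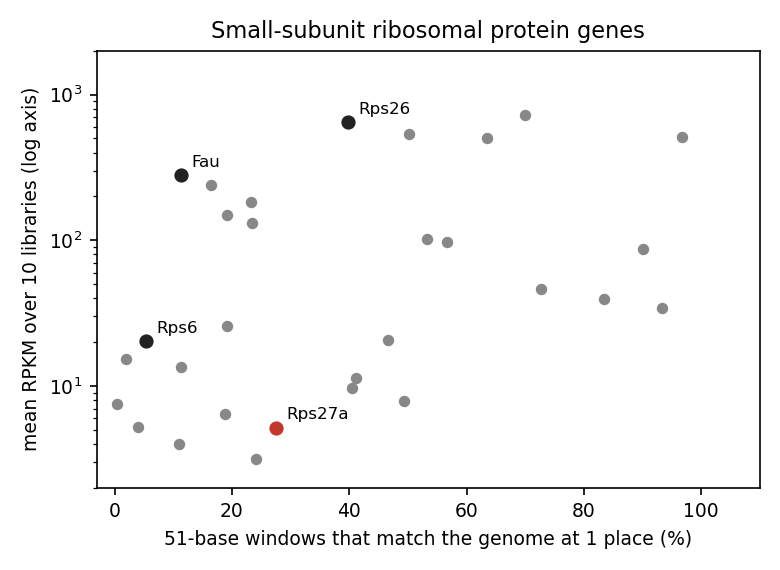
Mean RPKM over the 10 libraries (vertical, log axis) against the percentage of 51-base windows that match the genome at 1 place (horizontal), 1 point per small-subunit ribosomal protein gene. Windows that match no genomic place, across a splice junction, are counted with these. Rps27a (red) lies at 27.5% and 5.17 RPKM, near the bottom of the plot, and Fau at 11.4% and 281 RPKM.

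The genes next to each member in the genome were compared as well. Cenpv (a centromere protein gene) and Trpv2 (an ion channel gene), on either side of Ubb, had log2 fold changes of −0.10 (SE 0.122, edgeR adjusted p = 0.867) and 0.02 (SE 0.0674, adjusted p = 0.974). Beside Rps27a, Mtif2, a mitochondrial translation initiation factor gene, had −0.04 (SE 0.0604, edgeR adjusted p = 0.874). Clhc1 overlaps the 5′ end of Rps27a by 91 bases on the opposite strand and held 4 to 20 counts per library, with a log2 fold change of 0.81 (SE 0.399, edgeR adjusted p = 0.764). Its counts were few beside those of Rps27a, and whether counting used strand is not given in the sources used here. How reads in the overlap were counted for Rps27a therefore cannot be told from the few Clhc1 counts.

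Across mice, with the mean of each genotype removed, Ubb and Rps27a did not track each other detectably. Pearson r of log2 CPM was 0.0761 over 10 mice (permutation test, p = 0.836) and Spearman rho was 0.103 (permutation p = 0.783). Without CM/miR-126Δ/Δ mice 1 and 2, the farthest from the median of Ubb, r was 0.149 (permutation p = 0.717), and r before centring was 0.316. The sign turned in several alternatives given in the closing section.

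RNA concentration in the labels was 34.3, 27.9, 26.5, 20.6 and 40.9 ng/µl in CM mice 1 to 5 and 21.1, 20.0, 16.1, 29.5 and 18.2 ng/µl in CM/miR-126Δ/Δ mice 1 to 5 (30.0 ± 7.78 against 21.0 ± 5.13, SD, n = 5 each, exact permutation p = 0.0794). CM/miR-126Δ/Δ mouse 3, with the highest Ubb of its group, had the lowest concentration. Genotype-centred r with concentration was −0.256 for Ubb (permutation p = 0.474, rho −0.321, permutation p = 0.37, n = 10) and 0.412 for Rps27a (permutation p = 0.236, rho 0.442, permutation p = 0.203, n = 10). Without CM mice 1 and 5, farthest from the median concentration, r was −0.468 (permutation p = 0.247) and 0.588 (permutation p = 0.125). With 1 mouse left out in turn, r was −0.484 to −0.0618 for Ubb and 0.226 to 0.591 for Rps27a. Adjusted over these 3 relations, p for r was 0.836, 0.712 and 0.708 in the order given, and for rho 0.783, 0.555 and 0.555.

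Among 11681 genes that reached a mean of 1 RPKM in a genotype, those with a centred pattern over the 10 libraries most like that of Ubb included Prag1 (r 0.934), Pdk1 (pyruvate dehydrogenase kinase, 0.933), Eif3f (a translation initiation factor subunit, 0.927), Depp1 (0.924) and Limd2 (0.922). Their own log2 fold changes were −0.34 to −0.02, with edgeR adjusted p of 0.765 to 0.975. Most like Rps27a were Rps6 (a small-subunit ribosomal protein gene, r 0.929), Sfr1 (0.923), Stk17b (a kinase gene, 0.923), Egln3 (an oxygen-sensing hydroxylase gene, 0.921) and Ppp2cb (a phosphatase catalytic subunit, 0.919). No p is given for these, since they were among the highest of 11681 values.

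Around the 2 members, 12 lists of the ubiquitin pathway and of responses that Ubb is known to take part in were described by counts. They held 229 fitted genes, of which 181 were on the lower side in CM/miR-126Δ/Δ mice and 20 (8.73%) were lower at an unadjusted p under 0.05, where 3.32% of all genes were. None was higher at that threshold (3.29% of all genes), 0 met the cutoffs of the study (0.288%) and 0 had an edgeR adjusted p under 0.05 (0.0107% of all genes). The median log2 fold change was −0.07, against −0.02 over the 11682 genes that reached a mean of 1 RPKM, 57.5% of which were on the lower side. The lower count fell to 5 without CM mouse 4, 6 without CM mouse 1 or CM/miR-126Δ/Δ mouse 2, 9 without CM/miR-126Δ/Δ mouse 1 or 5, 10 without CM mouse 2 or with filterByExpr, and 13 with DESeq2, and rose to 30 without CM/miR-126Δ/Δ mouse 4, while the higher count was 0 to 5 over the alternatives. With the replicate number as a block, 36 list genes were lower at an unadjusted p under 0.05 (4.62% of all genes) and 4 higher (4.27% of all genes), and 10, all of them immediate early genes, were lower by the cutoffs of the study (0.261% of all genes).

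Nearly all proteasome genes stood slightly on the lower side, none of them past an adjusted threshold. Of the 20S core, which cuts proteins, 17 of 17 had a negative log2 fold change (median −0.10, but −0.04 without CM mouse 4), and 1 reached an unadjusted p under 0.05. This was Psmb8, an immunoproteasome subunit, at 170 ± 13.2 and 150 ± 19.6 RPKM (SD, n = 5 each, log2 fold change −0.18, edgeR adjusted p = 0.754). Of the 19S particle, which unfolds and admits substrates, 19 of 19 were negative (18 with RLE factors, filterByExpr or DESeq2; median −0.06, but −0.03 without CM mouse 1), led by the ATPase Psmc4 (57.03 ± 3.85 and 50.5 ± 3.90 RPKM, SD, n = 5 each, log2 fold change −0.18, edgeR adjusted p = 0.746) and with Psmd3 (−0.13). Of activator and assembly genes, 11 of 13 were negative (median −0.10, but −0.06 without CM/miR-126Δ/Δ mouse 2), among them the activator Psme1 (−0.18), the chaperone Psmg2 (−0.18) and the assembly factor Psmd5 (−0.13, but −0.07 without CM mouse 1), each at an unadjusted p under 0.05. Under the replicate block, Psmd3 and Psmd5 did not reach that threshold, and Psma7 of the 20S core did (−0.14).

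The conjugation and deconjugation enzymes were mixed. Among E1 genes, which activate ubiquitin or its relatives, 8 of 10 were negative (median −0.06), and Uba1, the main activating enzyme, had 103 ± 5.48 and 98.6 ± 6.03 RPKM (SD, n = 5 each, log2 fold change −0.07, edgeR adjusted p = 0.809). The log2 fold change of Uba1 was −0.10 to −0.02 with 1 mouse left out. Among E2 genes, which carry ubiquitin to substrates, 19 of 33 were negative (17 with filterByExpr, 18 with RLE factors or DESeq2; median −0.03, but 0.02 without CM/miR-126Δ/Δ mouse 5). Ube2q1, at 29.7 ± 0.924 and 26.7 ± 0.965 RPKM (SD, n = 5 each, log2 fold change −0.15, edgeR adjusted p = 0.661), and Rps25 of the ribosomal list were the 2 of 229 list genes whose groups did not overlap, as they did not for 1.1% of all genes. The E2 Cdc34 was also lower at an unadjusted p under 0.05 (−0.17). Of deubiquitinases, 19 of 33 were negative (16 of 32 with filterByExpr; median −0.02, but 0.01 without CM mouse 1) and 0 reached that threshold, and with the replicate block Usp9x, Usp15, Usp34 and the E2 Birc6 were the 4 higher genes (log2 fold changes 0.16, 0.12, 0.17 and 0.21).

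Of ubiquitin-like modifiers, 13 of 18 were negative (12 with RLE factors or DESeq2, 12 of 17 with filterByExpr; median −0.06), with Ubl4a, a factor of tail-anchored protein delivery, lower at an unadjusted p under 0.05 (−0.20). Of ubiquitin receptors and the p97 segregase with its cofactors, 9 of 12 were negative (8 with filterByExpr; median −0.03) and 0 reached that threshold. Regulators of ubiquitin and proteasome transcription were 4 of 9 negative (5 with the replicate block; median 0.00). Atf4, the effector of the integrated stress response, had 112 ± 27.5 and 78.2 ± 29.4 RPKM (SD, n = 5 each, log2 fold change −0.51, unadjusted p under 0.05, edgeR adjusted p = 0.748), while Hsf1, the heat shock factor, had 16.2 ± 0.894 and 15.7 ± 0.824 RPKM. Under the replicate block, Rad23b of the receptors (−0.13) and the modifier Nedd8 (−0.14) were also lower at an unadjusted p under 0.05.

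**Figure D4:**
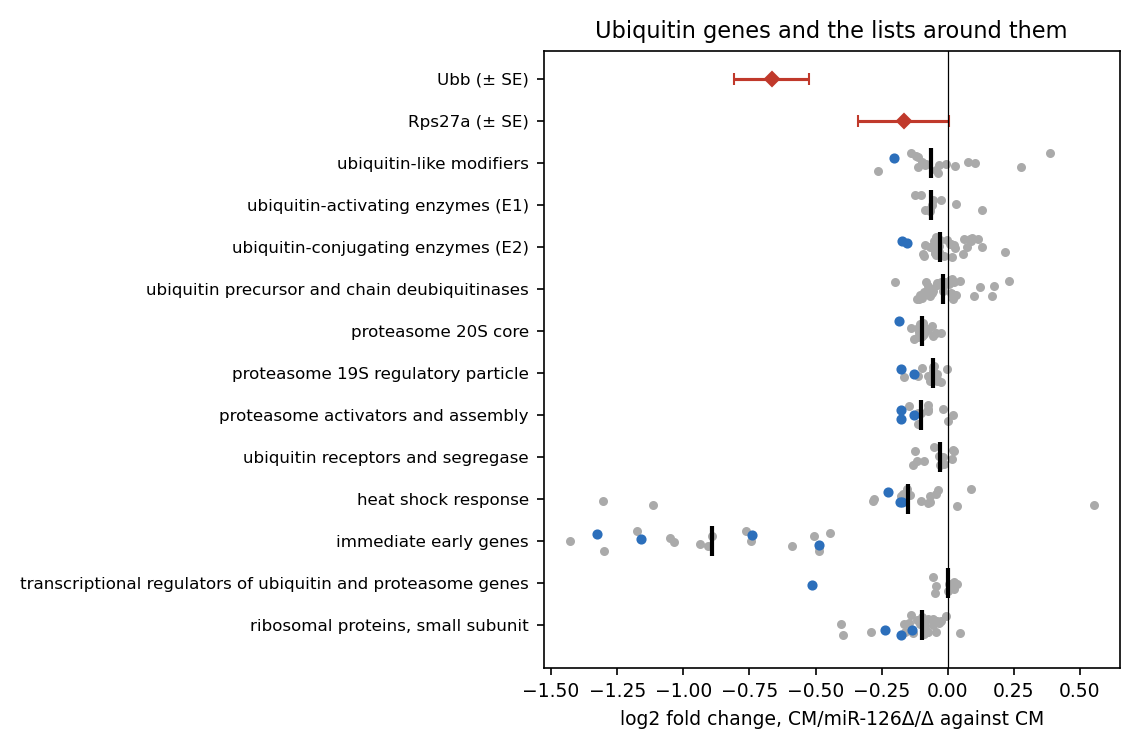
Log2 fold change of CM/miR-126Δ/Δ against CM (horizontal) for Ubb and Rps27a (red, ± SE) and for each gene of 12 lists (points, shifted vertically at random to be seen), with list medians as black bars. Blue points had an unadjusted p under 0.05 (20 of 229, all below 0). The immediate early genes lie farthest to the left, with a median of −0.89.

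The heat shock and immediate early lists concern stress, to which Ubb is known to respond. Of heat shock genes, 17 of 20 were negative (median −0.15, but −0.05 without CM mouse 1), and the chaperone gene Hspa8 and the Hsp90 cochaperone genes Stip1 and Ahsa1 had log2 fold changes of −0.23, −0.18 and −0.17 at an unadjusted p under 0.05, which were −0.14, −0.10 and −0.09 without CM mouse 1. Dnajb1 of this list (−0.28) also reached that threshold under the replicate block. Of the immediate early genes, which are induced within minutes of a stimulus and also by cell handling, 19 of 19 fitted were negative (median −0.89, but −0.49 without CM mouse 2), 4 of them at an unadjusted p under 0.05, namely Klf4 (−1.16), Ier5 (−0.49), Klf6 (−0.74) and Klf2 (−1.33). Without CM mouse 2, where Klf6 stood far above the other CM mice, Klf4 was at −0.73 and Klf6 at −0.41. Fos, the most abundant of them on average over the 10 libraries, though not in every one, had 344, 579, 106, 292 and 308 RPKM in CM mice 1 to 5 and 175, 192, 8.09, 220 and 9.21 RPKM in CM/miR-126Δ/Δ mice 1 to 5 (log2 fold change −1.43, SE 0.736, edgeR adjusted p = 0.764). With the replicate block, 16 of 19 reached an unadjusted p under 0.05, and the smallest edgeR adjusted p of the list was 0.0742.

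The order of the mice in Ubb and in immediate early genes differed between the genotypes, which was not tested. CM/miR-126Δ/Δ mouse 3 had the highest Ubb of its group and the lowest summed level of immediate early genes, 233 RPKM, and mouse 5 followed it in both, with a Ubb level of 65.4 RPKM and a list sum of 283 RPKM. Mice 4, 1 and 2 of that group had lower Ubb, 60.6, 53.8 and 53.2 RPKM, and list sums of 1732, 1312 and 1222 RPKM. Among CM mice the orders were closer, from the highest 4, 2, 5, 1 and 3 for Ubb and 2, 5, 4, 1 and 3 for the list, whose sums were 3164, 1887, 1613, 1568 and 672 RPKM. Genotype-centred r with Ubb over the 10 libraries, which pools both genotypes, had a median of −0.29 over immediate early genes, positive in 1 of 19, and −0.14 over heat shock genes, positive in 8 of the 19 that reached a mean of 1 RPKM. Over all 11681 genes the median was 0.0166 and 51.6% were positive. With Rps27a the median over immediate early genes was 0.66, against −0.0161 over all genes, 48.5% of which were positive. These are descriptions, since the genes of a list share the libraries. Whether the immediate early level had a part in the Ubb difference was not tested.

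The small-subunit ribosomal protein list without Rps27a had 29 of 30 genes on the lower side (28 with RLE factors, filterByExpr or DESeq2; median −0.10, but −0.06 without CM mouse 4), 3 of them at an unadjusted p under 0.05, namely Rps25 (−0.24), Rps15 (−0.18, but −0.11 without CM mouse 4) and Rps4x (−0.14, but −0.09 without CM mouse 1). Under the replicate block, Rps18 (−0.17) and Rps26 (−0.13) joined them. Genotype-centred r with Ubb had a median of 0.47 over this list, positive in 24 of 30 where 51.6% of all genes were, and 0.43 with Rps27a, against −0.0161 over all genes. The medians of r with Ubb were 0.28 over the 19S and 0.25 over the 20S proteasome genes, positive in 17 of 19 and 15 of 17, beside the same 51.6%. Other lists went the other way, with medians of −0.21 over E1, −0.16 over E2, −0.16 over deubiquitinase and −0.27 over regulator genes. The median was −0.01 over receptor, 0.01 over activator and assembly and 0.09 over ubiquitin-like genes. The log2 fold change of Rps27a (−0.17) lay within the range of the other ribosomal genes, −0.40 to 0.05.

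**Figure D5:**
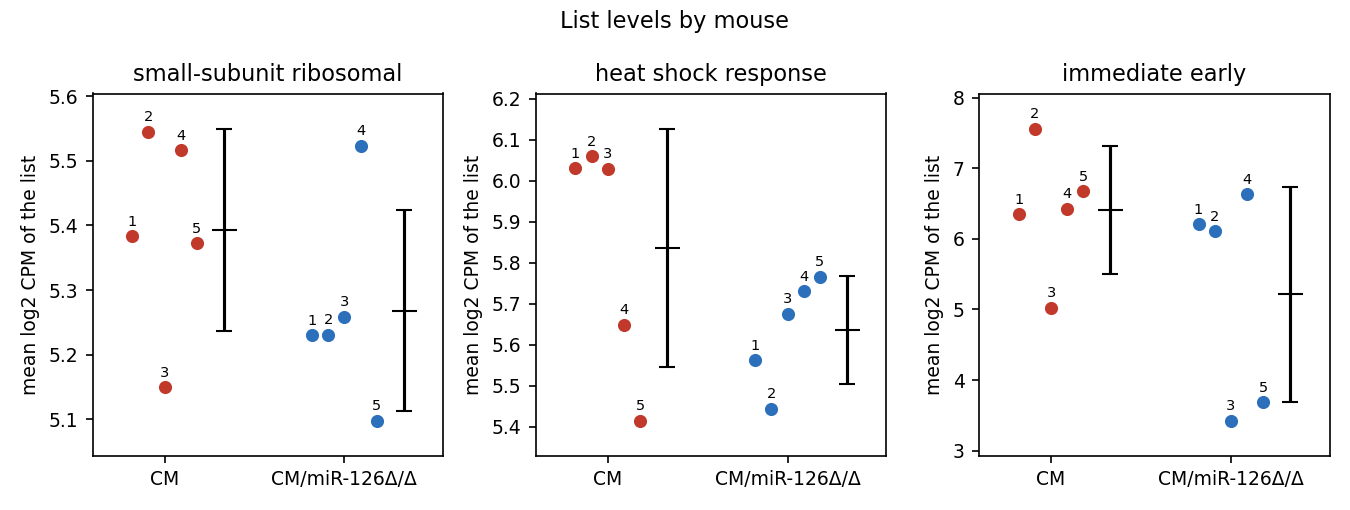
Mean log2 CPM over the genes of the small-subunit ribosomal (left), heat shock (middle) and immediate early (right) lists in each CM (red) and CM/miR-126Δ/Δ (blue) mouse, with the replicate number above each point and the mean ± SD in black, on axes that do not start at 0 and differ in range. CM/miR-126Δ/Δ mice 3 and 5 lie lowest for immediate early genes, at 3.42 and 3.69.

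The labelled cell type was checked by its markers. All 10 LSK markers were fitted, and their summed level was 1072 to 1200 RPKM in CM and 1016 to 1211 RPKM in CM/miR-126Δ/Δ mice, with Cd34 the most abundant (302 to 391 RPKM). Of the 10, 7 were on the higher side and 3, Hlf, Meis1 and Mecom, were higher at an unadjusted p under 0.05 (log2 fold changes 0.31, 0.19 and 0.24). At that threshold 3.29% of all genes were higher. Markers of other cells differed between mice. The 6 granulocyte markers summed to 3.81, 5.21, 44.6, 51.8 and 211 RPKM in CM mice 1 to 5 and 18.2, 37.0, 2.67, 523 and 7.58 RPKM in CM/miR-126Δ/Δ mice 1 to 5, with S100a9 the most abundant on average (1.08 to 209 RPKM). All 6 were on the higher side (median 0.87) and 0 reached an unadjusted p under 0.05. Without the mouse with most of this RNA, CM/miR-126Δ/Δ mouse 4, the Ubb log2 fold change was −0.63. Without CM mouse 5, the highest of its group, it was −0.63. Ubb was chosen on this difference, so these values decide nothing about it. The part of granulocyte RNA in the Ubb difference was not tested.

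The other marker lists leaned to the lower side. All 5 monocyte and macrophage markers did so (median −0.33), the complement genes C1qb (−0.93) and C1qa (−0.71) the most, and they summed to 60.8, 31.0, 80.4, 89.6 and 80.2 RPKM in CM mice 1 to 5 and 35.4, 43.9, 61.5, 68.2 and 45.9 RPKM in CM/miR-126Δ/Δ mice 1 to 5, with Csf1r the most abundant. The sum was lower in 4 of 5 pairs of the same number, as Ubb was, though the exception was pair 2 here and pair 3 for Ubb. T and NK cell markers (6 of 6 on the lower side, median −0.25) summed to 44.9 to 82.9 and 52.1 to 75.7 RPKM, nearly all of it Nkg7, and B cell markers (4 of 5, median −0.12) to 20.2 to 25.5 and 19.03 to 24.4 RPKM, most of it Cd79b. Endothelial markers (4 of 4, median −0.23) summed to 58.6 to 74.0 and 59.4 to 72.0 RPKM, mostly Pecam1. Of 7 erythroid markers 3 were listed at 0 in every library, 3 of the other 4 were on the lower side (median −0.41), and the sum was 5.86 to 39.8 and 11.9 to 34.2 RPKM, with Alas2 the most abundant on average. None of these markers reached an unadjusted p under 0.05, and their part in the Ubb difference was not tested.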

How the data were processed

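The authors trimmed single reads of 51 bases (stranded KAPA RNA HyperPrep with RiboErase), aligned them to mm10 with TopHat and took read counts per RefSeq gene from HTSeq (0.6.1p1 per the labels). The deposited counts are whole reads per gene, not normalized. The authors' second table is a signal: each count divided by 1 constant per library, from which whole reads were recovered for 100% of values (tolerance 0.1 read). The recovered reads equalled the deposited counts, so the count test on them had to call the same number of genes, 54.

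Counts of 18747 genes were tested in R 4.3.3 with edgeR 4.0.16 (TMM, quasi-likelihood F-test in its edgeR 3 form, genotype as the only term), checked on simulated data, with Benjamini-Hochberg adjustment. RPKM values were made here, dividing counts by exon length and by library size after TMM scaling. In every library 3 counts were at most 0.127 CPM, counting error only. Log2 CPM used a prior count of 2. Libraries were 1 per mouse. Python 3.11.15, numpy 2.4.6, pandas 2.3.3 and scipy 1.17.1 gave the permutation tests (100000 resamples, or all 252 splits of 5 against 5, whose smallest p is 0.00794).

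Replicate numbers were checked for pairing: deviations from the genotype means correlated at 0.172 to 0.465 in same-numbered mice (mean −0.0845 between other numbers). Deviations sum to 0 within a genotype, so a mean below 0 between other numbers follows largely from the same-numbered values. CM mouse 5 correlated more with CM/miR-126Δ/Δ mouse 4 (0.499) than with mouse 5 (0.172). Pairing was not tested, and the labels give no shared litter or day. The ratios by number are therefore descriptions, and the replicate block is an alternative only. Of 10 samples, 5 correlated best with their own number.

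Members and lists were chosen with earlier results of these data known. Named genes were the members, in each list those called, the 3 smallest p and the 2 highest RPKM, the 5 most like each member, and the neighbours in position. Klf2, Usp9x, Rps23 and Rps29 were named after their values were seen. Windows, ubiquitin units and 3′ untranslated regions came from GENCODE M1 and its mm9 genome, used for sequence only. Some ubiquitin-coding genes and some other genes are not reported here and stayed out of the lists and named genes. Alternatives were RLE factors, DESeq2 1.42.0, filterByExpr, the edgeR 4 quasi-likelihood, a replicate block, Rn45s left out and each mouse left out. The recovered reads, permutation within genotype and levels per window were added after the data were seen.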

Additional observations from a re-analysis of the deposited data

Results flagged for a closer look

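Among the named genes and the members, 140 groups of 5 mice were searched for a mouse standing far from the other 4 of its genotype by Dixon's criterion, and 2 were found where chance gives about 7. Gabarap, a ubiquitin-like modifier of autophagy, stood at 108.8 CPM in CM/miR-126Δ/Δ mouse 4, above the others of its group. Klf6, an immediate early gene, stood at 310.7 CPM in CM mouse 2. Neither Ubb nor Rps27a had such a mouse in either genotype.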

How the results depend on the processing

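Ubb was chosen for its difference in these libraries, so its values under the alternatives are a description and no sign of stability. Rps27a met no call under any alternative run and had log2 fold changes of −0.17 with the replicate block and −0.24 to −0.07 with 1 mouse left out, and Ubb had −0.68 with the block, −0.66 with DESeq2 and −0.82 to −0.59 with 1 mouse left out. The sums over both genes had log2 ratios of −0.78 to −0.58, and with ubiquitin units −0.81 to −0.59, with 1 mouse left out.

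The counts of called genes moved more. The cutoffs of the study called 115 genes with the block, 128 without CM mouse 3, 85 and 94 without CM/miR-126Δ/Δ mice 1 and 4, and 33 to 128 over all mice left out. Genes with an adjusted p under 0.05, 2 in all, numbered 20 with the block, 47 with DESeq2, 4 with filterByExpr and 1 to 7 with 1 mouse left out. List genes lower at an unadjusted p under 0.05, 20 in all, numbered 36 with the block, 10 with filterByExpr, 13 with DESeq2 and 5 to 30 with 1 mouse left out (5 without CM mouse 4, 6 without CM mouse 1 or CM/miR-126Δ/Δ mouse 2). Those higher, 0 in all, numbered 3 with RLE factors, 4 with filterByExpr, 2 with the edgeR 4 quasi-likelihood, 4 with the block, 2 without Rn45s, 4 with DESeq2 and 0 to 5 with 1 mouse left out. List genes called by the cutoffs of the study, 0 in all, numbered 10 with the block and 0 to 3 with 1 mouse left out. With 1 mouse left out, list medians of the log2 fold change were −1.14 to −0.49 for immediate early, −0.18 to −0.05 for heat shock, −0.11 to −0.04 for 20S, −0.07 to −0.03 for 19S, −0.11 to −0.06 for assembly, −0.13 to −0.06 for ribosomal, −0.07 to −0.03 for E1, −0.04 to 0.02 for E2, −0.02 to 0.01 for deubiquitinase, −0.06 to 0.00 for receptor, −0.11 to −0.02 for ubiquitin-like and −0.03 to 0.03 for regulator genes. The causes were not tested.

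The r of Ubb with Rps27a was −0.0629 without normalization factors, −0.021 without CM mouse 2, −0.122 without CM mouse 3 and −0.0262 without CM/miR-126Δ/Δ mouse 3, and −0.122 to 0.187 over all mice left out. With the replicate block, over 5 pairs, it was 0.377 (exact permutation p = 0.642), and r with RNA concentration was −0.25 for Ubb (exact permutation p = 0.55) and 0.752 for Rps27a (exact permutation p = 0.1). Over 54 named genes, 901 of 918 values kept their direction and side of the threshold, 9 were stronger and 8 in 3 genes turned sign, all near 0: Sp1 (−0.00125 with the block, −0.0162 without CM mouse 4, and −0.0235, −0.0152 and −0.00311 without CM/miR-126Δ/Δ mice 1, 2 and 3, and up to 0.0511 with 1 mouse left out), Sqstm1 (0.0225 without CM mouse 5, down to −0.0544, 0.00375 without CM/miR-126Δ/Δ mouse 1) and Sem1 (down to −0.0896, 0.0255 without CM/miR-126Δ/Δ mouse 1). Depth was 69 to 169 counts per library for Rps27a.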
